A study of Mus musculus with 12 samples.

Results

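The genes described here are 9 mouse genes of macrophage lipid handling: Pparg, which encodes the nuclear receptor PPAR gamma, its target genes Fabp4, Fabp5, Plin2, Angptl4 and Cd36, and the surface receptors Cd36, Msr1, Olr1 and Scarb1, which bind modified or native lipoproteins. They were taken as a fixed list of symbols, each of which matched 1 Ensembl gene ID among the 35275 in the count files, and all 9 passed the filter on low counts that left 12849 genes for testing. RNA was measured in 12 libraries of bone-marrow-derived macrophages (BMDMs) from wild-type mice, which are macrophages grown in culture from marrow precursors and not taken from a tissue. Every culture, controls included, received IL-4, IL-10 and M-CSF for 6 days, and the groups of 4 libraries each differed in what was added: DMSO, the solvent control; olaparib, an inhibitor of the PARP enzymes, which consume NAD; or MNA (methyl-nicotinamide), a derivative formed from NAD metabolism. No group without these cytokines was analysed here, so every value below is a level in cells cultured with IL-4. The study describes olaparib or DMSO as present during the 6 days of culture. The study's methods describe its marrow donors as young adult female or male mice and name 4 donors for these cells. The strain, sex and age of each library's donor are not given, and the labels do not say which library came from which donor, so p-values measure the spread between these libraries.

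PPAR gamma is a ligand-activated transcription factor that binds DNA as a heterodimer with a retinoid X receptor (RXR) and switches on genes for the uptake, transport and storage of fatty acids. In macrophages IL-4 induces it through STAT6, and it belongs to the program of alternative activation. The scavenger receptors among these genes take oxidised or acetylated lipoproteins into the cell, and the fatty acids set free from them can act as PPAR ligands and can be stored in lipid droplets. Levels are given below as CPM, the usual scaling of counts to a common library size, here after TMM normalisation. A gene was called, and is said to have risen or fallen, where the Benjamini-Hochberg adjusted p of edgeR's quasi-likelihood test, taken over all tested genes, was under 0.05.

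Because PPAR gamma is known to bind a direct repeat of AGGTCA with a spacer of 1 base, the RefSeq sequences (GRCm38.p6) upstream of the transcription starts were searched on both strands for the window nearest to that repeat, AGGTCA, any base, AGGTCA. The table of promoters matched 4 of the 9 genes, Plin2, Cd36, Olr1 and Pparg, and held no entry for Fabp4, Fabp5, Angptl4, Msr1 and Scarb1. Shown, for the droplet gene Plin2 and for the uptake receptors Cd36 and Olr1, are the 250 bases before the start, written 5′ to 3′ on the gene's strand with the nearest window in capitals.
Plin2, chr4:86670060-86670309, minus strand: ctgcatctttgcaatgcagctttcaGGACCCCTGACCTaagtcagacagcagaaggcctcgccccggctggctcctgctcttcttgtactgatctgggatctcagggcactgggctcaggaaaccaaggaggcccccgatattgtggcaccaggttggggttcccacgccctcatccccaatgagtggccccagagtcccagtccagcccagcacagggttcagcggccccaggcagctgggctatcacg
Cd36, chr5:17835897-17836146, minus strand: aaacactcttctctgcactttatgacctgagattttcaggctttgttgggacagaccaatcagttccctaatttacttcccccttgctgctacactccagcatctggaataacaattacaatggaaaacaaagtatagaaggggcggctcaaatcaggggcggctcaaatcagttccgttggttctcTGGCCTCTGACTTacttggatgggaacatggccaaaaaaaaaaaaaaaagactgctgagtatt
Olr1, chr6:129507166-129507415, minus strand: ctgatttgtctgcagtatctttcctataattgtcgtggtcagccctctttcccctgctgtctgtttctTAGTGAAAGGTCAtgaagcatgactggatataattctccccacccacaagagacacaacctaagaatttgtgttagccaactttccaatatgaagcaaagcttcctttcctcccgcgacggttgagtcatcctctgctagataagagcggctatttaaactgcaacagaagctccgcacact
The window upstream of Plin2 matched 10 of the 12 compared bases when read on the opposite strand and lay 225 to 213 bases before the start. That upstream of Cd36 also matched 10 of 12 on the opposite strand, 63 to 51 bases before the start, and that of Olr1 matched 9 of 12 on the same strand, 182 to 170 bases before the start. The Cd36 start used here lies inside the annotated gene (17781690 to 17888801, minus strand) and not at its outer 5′ end. Which start these cells used was not tested. Windows with 10 or more matched bases occurred in 3.24% of 32851 promoters of this length, those with 9 or more in 21.3%, and an exact match in 0.0335%. Each of the 3 Pparg starts had a best window of 8 matched bases, a closeness reached by 74.5% of all promoters. These letters describe the sequence, and binding was not measured.

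Library totals were 21146291 to 31446849 counts, and the ranges of the 3 groups overlapped. MNA replicate 2 stood apart from its group: on the first principal component of log2 CPM, which held 49.8% of the variance, it lay at -36.0, between the DMSO libraries at -43.7 to -33.6 and far from the other MNA libraries at 59.9 to 63.4. The labels give no difference for that library, and it was kept in its group. The common dispersion of the counts fell from 0.0333 to 0.0123 when it was left out. Since the 3 groups shared 1 estimate of the spread, each result for the 9 genes, that of olaparib included, is given with all 12 libraries and again without MNA replicate 2.

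With all 12 libraries, olaparib lowered Pparg and Fabp5 and raised Msr1 and Olr1. Genes called up made up 14.3% of all tested genes and genes called down 12.8%, against 2 of the 9 in each direction. MNA lowered Pparg, Fabp4, Fabp5 and Plin2 and raised Scarb1, which is 4 of 9 down against a background of 12.3% and 1 of 9 up against 16.3%. Between the treatments, Olr1 and Msr1 were higher and Scarb1 was lower with olaparib than with MNA, 2 of 9 and 1 of 9 against a background of 10.9% in each direction. The median log2 fold change of the 9 genes was -0.56 with olaparib and -0.62 with MNA, against a median of 0.00 over all tested genes in both comparisons.

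Without MNA replicate 2, all 9 genes were called in both comparisons with DMSO. Olaparib then raised 4 of them (Cd36, Msr1, Olr1 and Scarb1) and lowered 5 (Pparg, Fabp4, Fabp5, Plin2 and Angptl4), while 22.5% of all tested genes were called up and 21.2% down. MNA raised 2 (Cd36 and Scarb1) and lowered the other 7, against 27.2% and 26.9% of all tested genes, and the median of the 9 became -0.82. Olaparib was higher than MNA for 5 of them and lower for 1, against 21.5% and 20.7%. The olaparib comparison holds the same libraries in either fit, so its fold changes stayed within 0.01 on the log2 scale for these genes and only the estimate of the spread differed. The count of 4 with all libraries also rested on single controls and treated libraries: it was 2 without DMSO replicate 2 or olaparib replicate 1, and 1 without DMSO replicate 3 or 4 or olaparib replicate 2 or 4. In these fits 16.6% to 21.2% of all tested genes were called, against 27.0% with all libraries. For MNA, the count of 5 was 1 without any 1 of DMSO replicates 2, 3 and 4 or of MNA replicates 1, 3 and 4. The share of all tested genes fell there too, from 28.6% to 10.4%, 9.48% and 13.2% without those DMSO libraries. Without MNA replicate 1, 3 or 4, it was 848, 463 and 503 genes, against 3673 with all libraries.

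**Figure D1:**
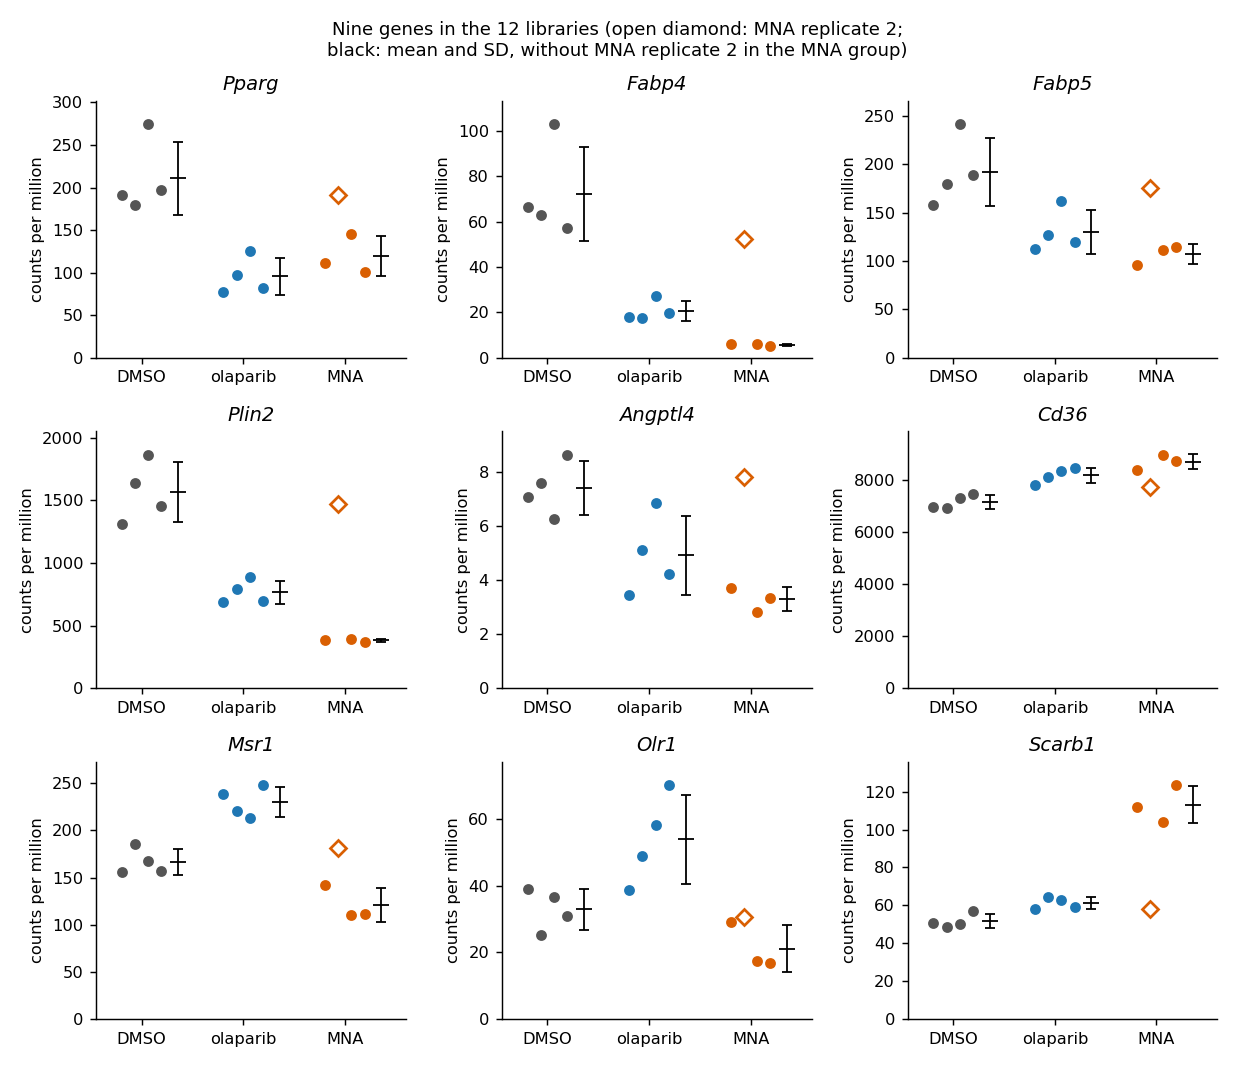
CPM (vertical axis, from 0) of each of the 9 genes in the 12 libraries, by group; each point is 1 library, the open diamond is MNA replicate 2, and the black mark is the group mean with its SD (n = 4, or n = 3 for MNA without replicate 2). Fabp4 and Plin2 show the DMSO libraries highest, olaparib between, and the MNA libraries other than replicate 2 lowest, while Scarb1 is highest in those MNA libraries.

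Pparg, on chromosome 6 (ENSMUSG00000000440, 115360951 to 115490399, plus strand, GRCm38), was read at 191, 180, 275 and 197 CPM in the 4 DMSO libraries. With olaparib it stood at 77.4, 97.9, 125 and 82.2 CPM, and with MNA at 112, 146 and 101 CPM in replicates 1, 3 and 4 and at 191 CPM in replicate 2. All 4 olaparib libraries lay below all DMSO libraries, as did the 3 other MNA libraries, whereas MNA replicate 2 lay within the DMSO range. The log2 fold change with olaparib was -1.14 ± 0.22 (SE; 2.20-fold lower, adjusted p = 0.00352), and the call held in each of the 12 fits that left out 1 library (adjusted p up to 0.0143). In pairs of the same replicate number, the log2 ratio of olaparib to DMSO ran from -1.30 to -0.88. With MNA the change was -0.62 ± 0.21 (adjusted p = 0.0486), a call that held only in the fits without olaparib replicate 3 or MNA replicate 2 (adjusted p up to 0.137 in the other 10). Without MNA replicate 2 it was -0.82 ± 0.18 (adjusted p = 0.00173). The difference between olaparib and MNA did not pass the test with that library (-0.52 ± 0.21, adjusted p = 0.0997) or without it (-0.32 ± 0.18, adjusted p = 0.165), although 3 of the 4 olaparib libraries lay below the MNA libraries in both cases.

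Fabp4, the fatty acid binding protein of adipocytes and macrophages (ENSMUSG00000062515, chromosome 3, 10204088 to 10208576, minus strand), had the largest difference among the 9. Its level was 66.2, 62.7, 103 and 57.0 CPM in DMSO, 18.1, 17.6, 27.3 and 19.8 CPM in olaparib, and 6.13, 5.91 and 5.35 CPM in MNA replicates 1, 3 and 4, but 52.2 CPM in MNA replicate 2. The groups of DMSO, olaparib and these 3 MNA libraries did not overlap, and MNA replicate 2 lay just below the DMSO range at 900% of the mean of the other MNA libraries. Olaparib gave a log2 fold change of -1.81 ± 0.64, which missed the threshold with all 12 libraries (adjusted p = 0.0527) and passed it with the replicate number as a block (adjusted p = 0.0461), without any 1 of MNA replicates 1, 3 and 4, and without MNA replicate 2 (-1.81 ± 0.18, 3.50-fold lower, adjusted p = 3.68e-06). MNA gave -2.05 ± 0.64 (adjusted p = 0.0354) and, without replicate 2, -3.64 ± 0.23 (12.5-fold lower, adjusted p = 2.24e-08). The 12-library call of MNA was lost, with adjusted p up to 0.0942, when any 1 DMSO library or any 1 of the other MNA libraries was left out. Between the treatments the difference was 0.24 ± 0.63 (adjusted p = 0.824) with MNA replicate 2 and 1.83 ± 0.22 (3.56-fold higher with olaparib, adjusted p = 1.98e-05) without it.

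Fabp5, the epidermal fatty acid binding protein, lies on chromosome 3 as Fabp4 does (ENSMUSG00000027533, 10012548 to 10016607, plus strand) and changed less. It was read at 158, 180, 242 and 189 CPM in DMSO and at 112, 127, 163 and 119 CPM in olaparib, where the highest olaparib library overlapped the lowest DMSO library. MNA replicates 1, 3 and 4 stood at 95.7, 112 and 115 CPM, below every DMSO library, and MNA replicate 2 stood at 175 CPM, within the DMSO range. The change was -0.56 ± 0.19 with olaparib (adjusted p = 0.0439) and -0.63 ± 0.19 with MNA (adjusted p = 0.0307), and without MNA replicate 2 it was -0.56 ± 0.13 (adjusted p = 0.00335) and -0.84 ± 0.14 (adjusted p = 2.25e-04). The olaparib call was lost, with adjusted p up to 0.131, without any 1 of DMSO replicates 2, 3 and 4, olaparib replicates 1, 2 and 4 and MNA replicate 4, and the MNA call, with adjusted p up to 0.0882, without any 1 of DMSO replicates 2, 3 and 4 and MNA replicates 1, 3 and 4. The difference between the treatments passed the test in neither of these fits (0.07 ± 0.19, adjusted p = 0.839, and 0.28 ± 0.14, adjusted p = 0.132, without MNA replicate 2). Of the 31-base words of Fabp5 transcripts, 9.27% also occur in another gene, mostly in Gm6166, so some of its reads could belong to such copies.

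Plin2 encodes the perilipin that coats lipid droplets in most cells and is stabilised by the lipid it covers (ENSMUSG00000028494, chromosome 4, 86648386 to 86670060, minus strand). DMSO libraries held 1315, 1637, 1864 and 1455 CPM and olaparib libraries 690, 794, 886 and 694 CPM. MNA replicates 1, 3 and 4 held 389, 392 and 368 CPM, and replicate 2 held 1474 CPM. Apart from that library, which lay within the DMSO range, the 3 groups did not overlap, with DMSO highest and MNA lowest. The olaparib change of -1.03 ± 0.39 missed the threshold with all 12 libraries (adjusted p = 0.0665), passed it with the replicate block (adjusted p = 0.0401), and was -1.04 ± 0.10 without MNA replicate 2 (2.05-fold lower, adjusted p = 4.45e-06). Same-numbered pairs gave log2 ratios of olaparib to DMSO within -1.07 and -0.93. MNA lowered Plin2 by 1.26 ± 0.39 on the log2 scale with all libraries (adjusted p = 0.0349, but up to 0.0991 without any 1 of DMSO replicates 2, 3 and 4 or MNA replicates 1, 3 and 4). Without replicate 2 the change was -2.03 ± 0.12 (4.10-fold lower, adjusted p = 1.51e-08). Olaparib and MNA differed by 0.22 ± 0.39 with that library (adjusted p = 0.725) and by 0.9995 ± 0.11 without it, where olaparib was 1.999-fold higher (adjusted p = 1.16e-05).

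Angptl4, a secreted inhibitor of lipoprotein lipase and a PPAR target in many tissues (ENSMUSG00000002289, chromosome 17, 33773750 to 33781830, minus strand), was the lowest of the 9, with 73 to 272 counts a library. Its level was 7.08, 7.60, 6.27 and 8.63 CPM in DMSO, 3.46, 5.11, 6.86 and 4.22 CPM in olaparib, and 3.70, 2.82 and 3.34 CPM in MNA replicates 1, 3 and 4. MNA replicate 2, at 7.81 CPM, lay within the DMSO range, and olaparib replicate 3 did too. Neither change passed the test with all libraries (olaparib -0.59 ± 0.30, adjusted p = 0.155; MNA -0.74 ± 0.30, adjusted p = 0.0784). Without MNA replicate 2, both fell (olaparib -0.60 ± 0.19, adjusted p = 0.0184; MNA -1.17 ± 0.21, adjusted p = 3.60e-04) and olaparib was higher than MNA by 0.57 ± 0.21 (adjusted p = 0.0451).

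Cd36 is the fatty acid translocase and scavenger receptor that also binds oxidised low-density lipoprotein (ENSMUSG00000002944, chromosome 5, 17781690 to 17888801, minus strand). Of the genes named at the start as PPAR gamma targets, it alone was higher with both agents, not lower. Scarb1, named there as a receptor, was also higher with both agents. Cd36 changed as follows. Its level was high and even in DMSO, at 6977, 6923, 7343 and 7489 CPM, and stood at 7818, 8120, 8348 and 8489 CPM in olaparib. MNA replicates 1, 3 and 4 stood at 8420, 8991 and 8751 CPM and replicate 2 at 7742 CPM. Every treated library, MNA replicate 2 included, lay above every DMSO library. The differences were small and missed the threshold with all 12 libraries: 0.19 ± 0.08 with olaparib (1.14-fold, adjusted p = 0.108) and 0.24 ± 0.08 with MNA (1.18-fold, adjusted p = 0.0501). Without MNA replicate 2 both were called (0.19 ± 0.05, adjusted p = 0.00997, and 0.28 ± 0.06, adjusted p = 8.66e-04), and leaving out olaparib replicate 1 also brought the MNA change past the threshold. The treatments did not differ past the threshold (-0.05 ± 0.08, adjusted p = 0.722; without MNA replicate 2, -0.09 ± 0.06, adjusted p = 0.219).

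Msr1 and Olr1, by contrast, rose with olaparib and were lower with MNA, where they passed the test only without replicate 2. Msr1, the class A scavenger receptor for acetylated and oxidised lipoproteins (ENSMUSG00000025044, chromosome 8, 39581685 to 39642673, minus strand), was read at 155, 185, 168 and 157 CPM in DMSO and at 239, 221, 213 and 248 CPM in olaparib. In MNA replicates 1, 3 and 4 it stood at 142, 111 and 111 CPM, below the DMSO libraries, and in replicate 2 at 181 CPM, within them. Olaparib raised it by 0.47 ± 0.14 (1.38-fold, adjusted p = 0.0273), with no overlap with DMSO and with 4 of 4 same-numbered pairs up. That call was lost, with adjusted p up to 0.0759, without any 1 of DMSO replicates 1, 3 and 4 and olaparib replicates 1, 2 and 4, and was 7.86e-04 without MNA replicate 2. MNA gave -0.29 ± 0.14 (adjusted p = 0.124) and, without replicate 2, -0.46 ± 0.10 (adjusted p = 0.00110). The difference between the treatments was 0.76 ± 0.14 (1.69-fold higher with olaparib, adjusted p = 0.00297), was called in all 12 fits that left out 1 library, and was 0.92 ± 0.10 (adjusted p = 5.47e-06) without MNA replicate 2.

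Olr1, the lectin-like receptor for oxidised low-density lipoprotein (LOX-1; ENSMUSG00000030162, chromosome 6, 129485244 to 129507165, minus strand), was less even. Its level was 38.9, 25.1, 36.7 and 30.98 CPM in DMSO, 38.8, 49.0, 58.1 and 70.2 CPM in olaparib, and 29.2, 17.3 and 16.7 CPM in MNA replicates 1, 3 and 4, with 30.6 CPM in replicate 2. Olaparib replicate 1 and MNA replicates 1 and 2 lay within the DMSO range, and the other treated libraries lay above it with olaparib and below it with MNA. Olaparib raised it by 0.72 ± 0.23 (1.64-fold, adjusted p = 0.0396), a call that was lost with the replicate block (adjusted p = 0.0667). It was also lost, with adjusted p up to 0.122, without any 1 of DMSO replicates 2, 3 and 4 and olaparib replicates 2, 3 and 4. Without MNA replicate 2 it stood at 0.72 ± 0.20 (adjusted p = 0.0101). MNA gave -0.49 ± 0.23 (adjusted p = 0.126) and, without replicate 2, -0.64 ± 0.22 (adjusted p = 0.0259). All 4 olaparib libraries lay above all 4 MNA libraries, a difference of 1.20 ± 0.24 (2.30-fold, adjusted p = 0.00427) that was called in all 12 fits without 1 library and was 1.36 ± 0.23 (adjusted p = 2.90e-04) without MNA replicate 2.

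Scarb1, the receptor for high-density lipoprotein that exchanges cholesterol esters and free cholesterol (SR-BI; ENSMUSG00000037936, chromosome 5, 125277087 to 125341094, minus strand), was the gene that MNA raised in the fit of all 12 libraries. It stood at 50.7, 48.7, 50.1 and 56.8 CPM in DMSO and at 57.8, 64.4, 62.8 and 58.9 CPM in olaparib. MNA replicates 1, 3 and 4 held 112, 104 and 123 CPM and replicate 2 held 58.2 CPM. Every treated library lay above every DMSO library, by little in olaparib and in MNA replicate 2 and by far more in the other MNA libraries. MNA raised it by 0.95 ± 0.17 (1.93-fold, adjusted p = 0.0142), called in all 12 fits without 1 library (adjusted p up to 0.0488), and by 1.13 ± 0.07 (2.19-fold, adjusted p = 2.16e-08) without replicate 2. The olaparib difference was 0.24 ± 0.17 (1.18-fold, adjusted p = 0.316) and was called only in the fit without MNA replicate 2 (0.24 ± 0.07, adjusted p = 0.00911) among those that left out 1 library. Olaparib was lower than MNA by a log2 difference of -0.71 ± 0.17 (adjusted p = 0.0140), or -0.89 ± 0.07 (adjusted p = 4.09e-07) without MNA replicate 2.

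**Figure D2:**
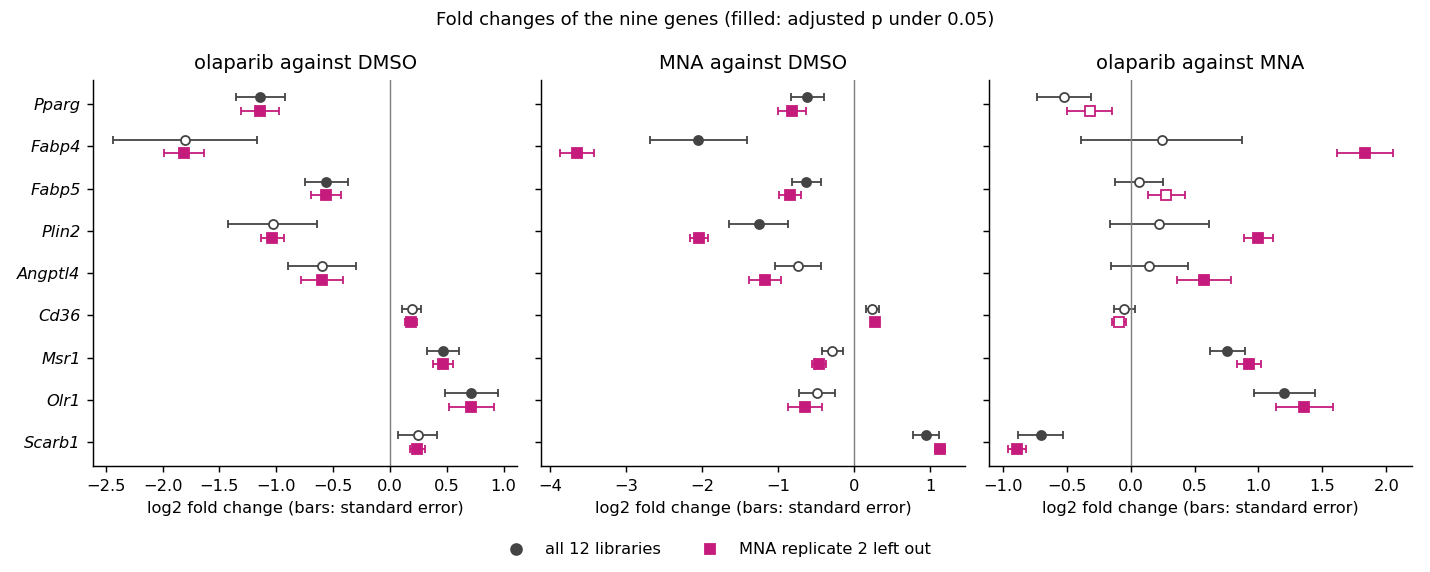
Log2 fold change (horizontal axis, with its own scale in each panel) of the 9 genes in the 3 comparisons; circles are the fit of all 12 libraries, squares the fit without MNA replicate 2, bars the standard error, and filled symbols an adjusted p under 0.05. In the olaparib panel the squares sit on the circles with shorter bars, while in the MNA panel Fabp4 moves from -2.05 to -3.64 and Plin2 from -1.26 to -2.03.

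Counting libraries in place of p-values, olaparib and DMSO did not overlap for 6 of the 9 genes (Pparg, Fabp4, Plin2, Cd36, Msr1 and Scarb1), while 41.0% of all tested genes did not overlap. MNA replicates 1, 3 and 4 did not overlap with DMSO for 8 of the 9, all but Olr1, while 54.4% of all tested genes did not. MNA replicate 2 lay within the range of the DMSO libraries for 6 genes (Pparg, Fabp5, Plin2, Angptl4, Olr1 and Msr1), just below it for Fabp4 and above it for Cd36 and Scarb1. It was the highest of the 4 MNA libraries for 7 genes and the lowest for Cd36 and Scarb1. Against the mean of the other MNA libraries it held 900% of their Fabp4, 385% of their Plin2, 238% of their Angptl4 and 51.4% of their Scarb1.

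Per length of the transcript, the 9 genes differed widely in level, as the plot of levels per kilobase shows. Levels between genes were compared as CPM per kilobase of the longest principal transcript in the annotation. In DMSO, Cd36 stood first at 2113, before Plin2 at 830 and Fabp5 at 195. Pparg (119), Msr1 (117) and Fabp4 (80.6) followed, each overlapping the range of its neighbour, and then Scarb1 (20.5), Olr1 (9.22) and Angptl4 (2.24) without overlap. With olaparib, Msr1 (162) and Fabp5 (132) overlapped behind Plin2 (406), Pparg came next at 54.1, and Scarb1 (24.2), Fabp4 (23.1) and Olr1 (15.1) each overlapped the next. In MNA replicates 1, 3 and 4, Plin2 stood at 203, Scarb1 at 44.9 ranked above Fabp4 at 6.47, and Fabp4 overlapped Olr1 at 5.90. With the joined length of all annotated exons in place of the principal transcript, Cd36 and Plin2 kept the first places and Angptl4 the last in every group. In DMSO, Fabp5 and Pparg then exchanged ranks and Olr1 ranked above Scarb1. With olaparib, Fabp5 ranked above Msr1, and Olr1 above both Scarb1 and Fabp4. In MNA replicates 1, 3 and 4, Pparg ranked above Fabp5 and Msr1, and Olr1 (5.90) above Fabp4 (1.29).

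**Figure D3:**
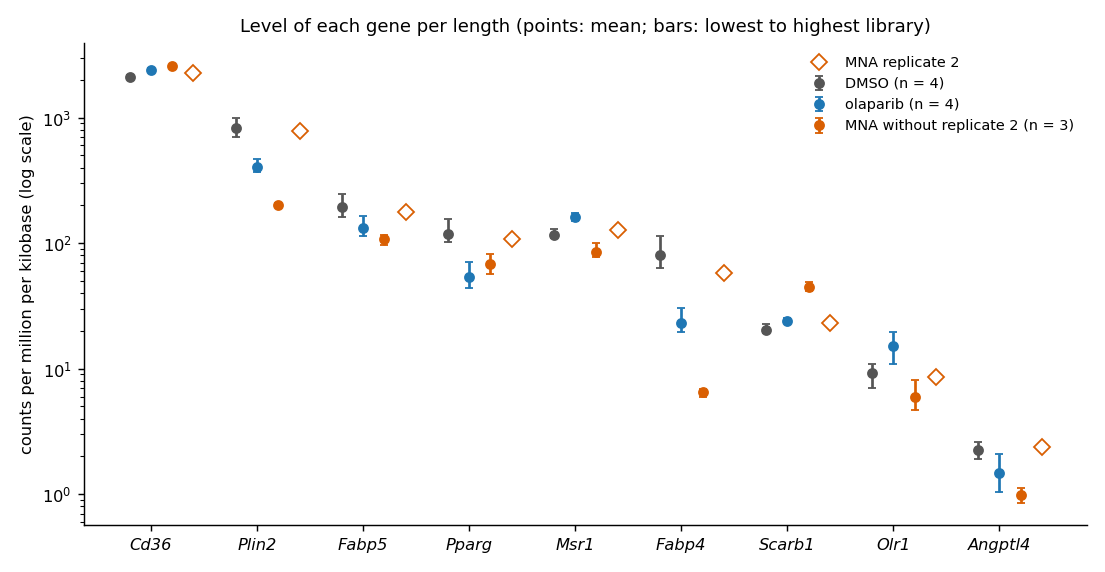
CPM per kilobase of transcript (log scale) for the 9 genes, ordered by their mean in DMSO; points are group means, bars run from the lowest to the highest library, and open diamonds are MNA replicate 2. Cd36 stays between 2037 and 2645 in every library, and Fabp4 covers the widest range, from 80.6 in DMSO to 6.47 in the MNA libraries other than replicate 2.

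Within a group, Cd36 was the most even gene, with a coefficient of variation of 3.85% in DMSO, 3.57% in olaparib and 3.29% in MNA without replicate 2. Fabp4, Pparg and Fabp5 varied by 28.8%, 20.5% and 18.4% in DMSO, where replicate 3 was highest for each of them and for Plin2. Olaparib replicate 3 was again the highest of its group for Pparg, Fabp4, Fabp5, Plin2 and Angptl4, and olaparib replicate 1 was the lowest of its group for 7 of the 9. Plin2 and Fabp4 varied by 3.38% and 6.92% over MNA replicates 1, 3 and 4, and by 83.2% and 133% over all 4 MNA libraries.

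The genes whose profile over the 12 libraries was nearest to that of each member were found by the root mean square (RMS) difference of mean-centred log2 CPM, among 9745 genes with at least 100 counts on average. For Pparg these were Rgl1 (RMS 0.173) and Syne2 (0.190), and for Cd36 Zwint (0.046) and Smim13 (0.050). For Fabp4 they were Gprc5b (0.324) and Itgb7 (0.343), for Fabp5 St6galnac4 (0.088) and Bcap31 (0.111), and for Plin2 Rai14 (0.152). Angptl4 was nearest to Faap24 (0.222) and Dot1l (0.223), Olr1 to Clec2i (0.232) and Igf1 (0.238), Msr1 to Cbx2 (0.118) and Mdm2 (0.137), and Scarb1 to Castor2 (0.089) and Parp3 (0.103). Among the members themselves, Msr1 ranked 53 in nearness to Olr1 (0.334) and Plin2 ranked 47 to Fabp4 (0.624), while Fabp5 ranked 83 to Pparg (0.312). The RMS of a member's own profile ran from 0.119 for Cd36 to 1.42 for Fabp4, so the differences are not on 1 scale across members. The small differences of Cd36 go with a nearly flat profile.

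Genes of the same pathway were read from hand-written lists of genes that bind with or act upon PPAR gamma, its further targets, and other receptors and enzymes of lipid handling. The counts below stand against 14.3% of all tested genes called up and 12.8% down with olaparib and 16.3% and 12.3% with MNA, or 22.5% and 21.2% with olaparib and 27.2% and 26.9% with MNA without MNA replicate 2. When 1 library was left out, genes called in either direction made up 16.6% to 43.7% with olaparib and 3.55% to 54.1% with MNA. Of 14 tested receptors, RXR partners and coregulators, olaparib raised 1 and lowered 5 (3 and 6 without MNA replicate 2). Rxra, the main RXR partner in macrophages, rose by 0.56 ± 0.08 (52.1 ± 2.6 to 76.97 ± 6.07 CPM, adjusted p = 8.45e-04), and the coactivator subunit Med1 (-0.42 ± 0.06, adjusted p = 8.46e-04), the corepressor Nrip1 (-0.34 ± 0.07, adjusted p = 0.00572) and the acetyltransferase Crebbp (-0.29 ± 0.08, adjusted p = 0.0242) fell. MNA raised none of the 14 and lowered 4 with all libraries, and raised 2 and lowered 4 without replicate 2. With MNA, Rxra fell by 0.42 ± 0.08 (adjusted p = 0.0142; 0.50 ± 0.07 without replicate 2, adjusted p = 2.90e-05). The coactivator Ppargc1b (-0.57 ± 0.15, adjusted p = 0.0220) and Crebbp (-0.30 ± 0.08, adjusted p = 0.0254) fell too, and without replicate 2 Ncoa3 (0.31 ± 0.07, adjusted p = 0.00140) and Ppard (0.17 ± 0.06, adjusted p = 0.0357) rose. Ppara and Rxrg had at most 2 counts in any library. Over the 12 fits without 1 library, 4 to 9 of the list were called with olaparib and 1 to 6 with MNA, the highest counts being those without MNA replicate 2.

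Of 13 tested genes that act upstream of Pparg in macrophages, olaparib raised 3 and lowered 1 (5 and 2 without MNA replicate 2), and MNA raised 5 and lowered 2 (6 and 3 without replicate 2). The IL-4 receptor chain Il4ra was higher with both agents (0.39 ± 0.13, adjusted p = 0.0467, and 0.46 ± 0.13, adjusted p = 0.0270). Il13ra1, its partner chain, rose with MNA by 1.82 ± 0.31 (6.07 ± 0.53 to 21.4 ± 9.2 CPM, adjusted p = 0.0142), as did the shared receptor chain Csf2rb (0.67 ± 0.16, adjusted p = 0.0176), 19.7% of whose 31-base words occur in other genes, as do 19.6% of those of Cebpb. MNA lowered the transcription factors Klf4 (-1.33 ± 0.33, adjusted p = 0.0192) and Cebpb (-0.72 ± 0.18, adjusted p = 0.0197), by 1.95 ± 0.09 and 0.95 ± 0.12 on the log2 scale without replicate 2, and without replicate 2 also Irf4 (-0.35 ± 0.14, adjusted p = 0.0493). Olaparib raised Cebpa by 0.30 ± 0.09 (adjusted p = 0.0351), and its call on the kinase Jak3 (-0.23 ± 0.08, adjusted p = 0.0474) was lost with the replicate block (adjusted p = 0.0599). Stat6, which carries the IL-4 signal, gave -0.06 with olaparib (adjusted p = 0.504) and -0.09 with MNA (adjusted p = 0.276), and was named after its values were seen. Between 1 and 7 of the list were called with olaparib, and 2 and 9 with MNA, when 1 library was left out.

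Among 24 tested further targets of the PPAR receptors, olaparib raised 7 and lowered 2 (10 and 4 without MNA replicate 2), with a median log2 fold change of 0.19 against 0.00 over all genes. Among those that rose were Lpl, the lipoprotein lipase that Angptl4 inhibits (0.86 ± 0.20, 2846 ± 658 to 5150 ± 455 CPM, adjusted p = 0.0108), the peroxisomal enzyme Ehhadh (0.83 ± 0.15, adjusted p = 0.00255) and the mitochondrial carrier Ucp2 (0.75 ± 0.19, adjusted p = 0.0129), while the peroxisomal protein Pex11a (-0.85 ± 0.24, adjusted p = 0.0220) and the acyl-CoA synthetase Acsl1 (-0.30 ± 0.09, adjusted p = 0.0224) fell. MNA raised 4 and lowered 6, and raised 8 and lowered 11 without replicate 2. Lpl (0.82 ± 0.20, adjusted p = 0.0194), Ucp2 (0.75 ± 0.19, adjusted p = 0.0194) and the sterol hydroxylase Cyp27a1 (1.34 ± 0.31, adjusted p = 0.0163) rose. The mannose receptor Mrc1 (-1.49 ± 0.38, adjusted p = 0.0210), the sterol receptor Nr1h3 (-1.39 ± 0.33, adjusted p = 0.0174) and Pex11a (-0.82 ± 0.24, adjusted p = 0.0286) fell. Without replicate 2, Mrc1 gave -2.19 ± 0.18 and Nr1h3 -2.01 ± 0.11. Arg1, an arginase and hallmark of IL-4-treated macrophages, stood at 555 ± 123 CPM in DMSO, 11.4 ± 1.4 in MNA replicates 1, 3 and 4 and 359 in replicate 2. It missed the threshold with all 12 libraries (adjusted p = 0.0767; DESeq2 0.0438) and was called down without replicate 2 (adjusted p = 1.16e-08). In the fits without 1 library 6 to 14 of the list were called with olaparib and 0 to 19 with MNA, the 0 coming without MNA replicate 1, 3 or 4 and the 19 without MNA replicate 2. The fatty acid oxidation and adipocyte targets Pdk4, Pck1, Plin1, Plin4, Plin5, Cidec and Aqp7 had at most 10 counts in any library and were not tested.

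Of 16 other tested uptake and scavenger receptors, olaparib raised 4 and lowered 1 (6 and 2 with the replicate block, 6 and 4 without MNA replicate 2). The fatty acid transporter Slc27a3 (2.21 ± 0.37, 2.41 ± 0.96 to 11.1 ± 2.0 CPM, adjusted p = 0.00186), the scavenger receptor Stab1 (2.17 ± 0.30, adjusted p = 7.19e-04) and the lectin Clec7a (1.11 ± 0.30, adjusted p = 0.0192) rose, and Cd68 fell by 0.55 ± 0.10 (adjusted p = 0.00353). MNA raised 4 and lowered 4 (6 and 6 without replicate 2). Clec7a (1.24 ± 0.30, adjusted p = 0.0187) and the transporter Slc27a4 (0.36 ± 0.09, adjusted p = 0.0205) rose, and Slc27a3 did without replicate 2 (1.14 ± 0.32, adjusted p = 0.00782). Stab2 (-2.27 ± 0.52, adjusted p = 0.0162), Slc27a1 (-1.56 ± 0.54, adjusted p = 0.0493) and Stab1 (-0.94 ± 0.31, adjusted p = 0.0427) fell. Without replicate 2, Stab2 gave -3.34 ± 0.33 and Slc27a1 -2.84 ± 0.10. Stab1 thus moved up with olaparib and down with MNA, as Msr1 and Olr1 did in the fit without MNA replicate 2. When 1 library was left out, 4 to 10 were called with olaparib and 2 to 12 with MNA.

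Of 18 genes of lipid droplets and neutral lipid turnover other than Plin2, all tested, olaparib raised 2 and lowered 3 (4 and 5 without MNA replicate 2). Hilpda, which inhibits the droplet lipase, fell by 1.85 ± 0.49 (43.8 ± 5.9 to 12.2 ± 1.6 CPM, adjusted p = 0.0168), as did the cholesterol ester hydrolase Nceh1 (-0.51 ± 0.10, adjusted p = 0.00400) and the acyltransferase Gpat4 (-0.32 ± 0.05, adjusted p = 0.00169), while the phosphatidate phosphatases Lpin1 (0.99 ± 0.23, adjusted p = 0.0100) and Lpin2 (0.52 ± 0.13, adjusted p = 0.0155) rose. MNA raised 5 and lowered 2. Hormone-sensitive lipase Lipe (0.68 ± 0.15, adjusted p = 0.0154), Lpin2 (0.55 ± 0.13, adjusted p = 0.0190) and the seipin gene Bscl2 (0.50 ± 0.10, adjusted p = 0.0142) rose, and Abhd5 (-0.42 ± 0.12, adjusted p = 0.0245) and the acyltransferase Soat1 (-0.28 ± 0.09, adjusted p = 0.0411) fell. Without replicate 2, MNA raised 6, Lpin1 among them (0.78 ± 0.17, adjusted p = 0.00149), and lowered 9, which included Hilpda (-2.30 ± 0.13, 8.89 ± 0.81 CPM, adjusted p = 1.05e-08) and Fitm2 (-0.47 ± 0.13, adjusted p = 0.00794). Of the 31-base words of Abhd5, Lipe and Bscl2, 16.6%, 12.9% and 12.6% occur in other genes. The called genes of this list numbered 5 to 9 with olaparib and 1 to 15 with MNA when 1 library was left out.

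Among the relatives of Fabp4 and Fabp5, Fabp7, the brain fatty acid binding protein, stood at 4.29 ± 0.52 CPM in DMSO and at 4.41 CPM in MNA replicate 2, and between 0 and 0.165 CPM in the other MNA libraries (adjusted p = 2.94e-08 without replicate 2). In olaparib it stood at 12.9 ± 1.5 CPM (1.58, adjusted p = 0.144, and 5.86e-06 without MNA replicate 2). Among the relatives of Angptl4, olaparib lowered Angptl6 (-1.32 ± 0.38, adjusted p = 0.0249) and Angptl2 (-0.55 ± 0.10, adjusted p = 0.00305), and MNA lowered Angptl6 (-1.18 ± 0.38, adjusted p = 0.0377; -1.93 ± 0.17 without replicate 2) and, without replicate 2, also Angptl2, which gave -0.28 ± 0.07 (adjusted p = 0.00653). Angptl6 shares 15.2% of its 31-base words with another gene.

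**Figure D4:**
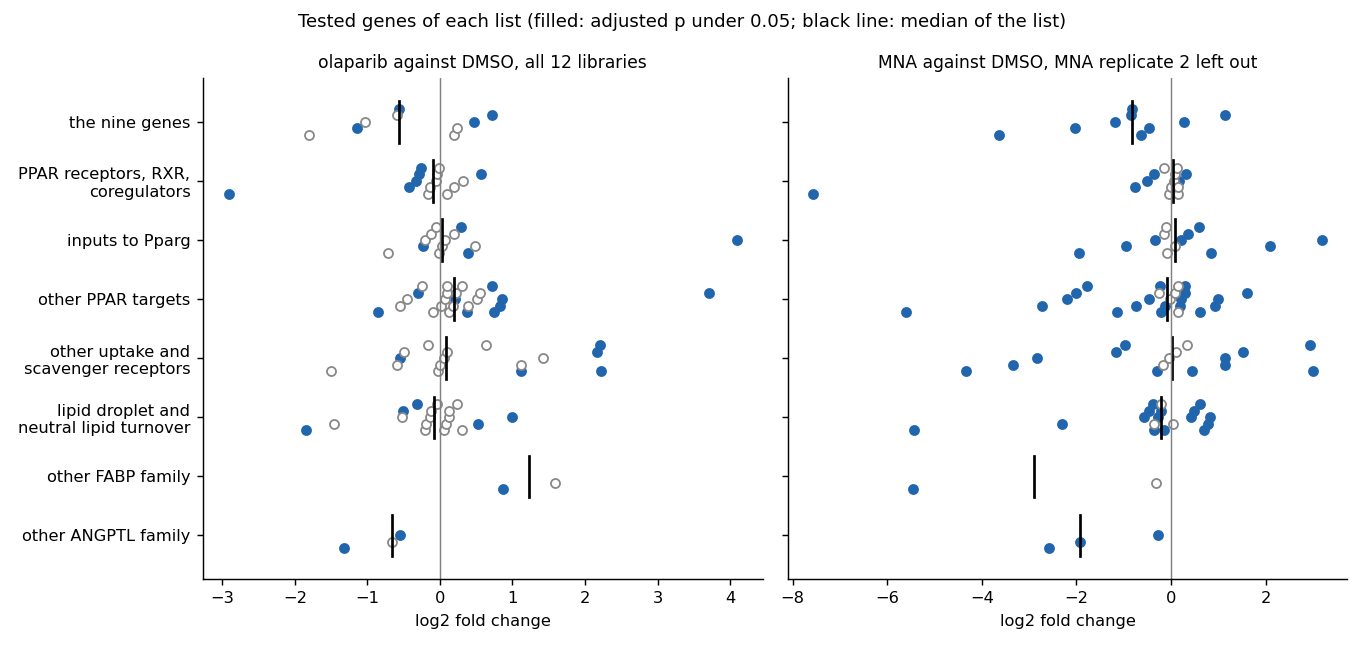
Log2 fold change (horizontal axis, a different scale in each panel) of every tested gene of each list, with olaparib in all 12 libraries on the left and with MNA without replicate 2 on the right; each point is 1 gene, filled where its adjusted p was under 0.05, and the black line is the median of the list. Apart from the short FABP and ANGPTL lists, the lists around the 9 genes have called genes on both sides of 0 and medians from -0.21 to 0.19, and some values beyond 3 on either side belong to genes with few counts in a group, whose fitted change depends on the prior count.

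Markers of other cell types were read beside these results, since several of the 9 genes are not particular to macrophages and, in bulk RNA, fewer cells of a type and less RNA per cell cannot be told apart. All 9 macrophage markers passed the filter, and their summed level was 4231 to 5353 CPM in DMSO, 8773 to 10530 in olaparib, 5882 to 7719 in MNA replicates 1, 3 and 4 and 3928 in replicate 2. The 8 markers of alternative activation, all tested, summed to 33790 to 54230 CPM in DMSO, 19600 to 31130 in olaparib, 1689 to 2328 in MNA replicates 1, 3 and 4 and 32700 in replicate 2. Most of that sum was Chil3 (means of 36700 CPM in DMSO, 21860 in olaparib and 726 in MNA without replicate 2). The olaparib means of Arg1 (688 against 555 in DMSO), Retnla (1079 against 888) and Mgl2 (932 against 618) were above those of DMSO. Those of Ccl24 (57.8 against 384), Mrc1 (571 against 679), Clec10a (17.3 against 32.7) and Pdcd1lg2 (1.64 against 2.71) were below. Of these markers, olaparib changed only Ccl24 past the threshold with all 12 libraries (-2.73, adjusted p = 1.34e-04). Without MNA replicate 2, Chil3 and Clec10a were also called down and Mgl2 was called up. In that fit MNA lowered all of these markers past the threshold except Mgl2 (655 CPM, adjusted p = 0.796). Besides Chil3, the MNA means were 325 CPM for Retnla, 203 for Ccl24, 149 for Mrc1, 11.4 for Arg1, 9.88 for Clec10a and 1.23 for Pdcd1lg2. Of that list Arg1 and Mrc1 are also counted among the PPAR targets above, and its part in the changes of the members was not tested. Fabp4 also marks adipocytes. Their defining markers Lep, Retn, Cfd and Plin1 had at most 3 counts in every library, with Cfd at 0 in all 12. Of the 7 adipocyte markers, 2 were tested. The 7 summed to 11.5 to 12.7 CPM in DMSO, 10.95 to 12.5 in olaparib, 16.4 to 20.9 in MNA replicates 1, 3 and 4 and 12.5 in replicate 2. That sum was mostly Lipe, while Adipoq, another defining marker, had means of 1.88 CPM in DMSO, 0.492 in olaparib and 0.0397 in MNA without replicate 2 (adjusted p = 0.0918 with olaparib and 0.0514 with MNA in all 12 libraries, and 9.72e-04 and 7.74e-06 without MNA replicate 2). Endothelial cells express Cd36 and Fabp4, and 4 of their 7 markers were tested, with Emcn at 0 in all libraries and sums of 8.16 to 14.4 CPM in DMSO, 8.25 to 10.8 in olaparib, 2.16 to 2.86 in MNA replicates 1, 3 and 4 and 7.34 in replicate 2. With olaparib, Pecam1 was called up (2.05 to 4.64 CPM, adjusted p = 0.00875). Kdr was lower (6.33 to 2.21 CPM, adjusted p = 0.121, and 0.00101 without MNA replicate 2), and Cdh5 and Esam were called in neither fit. Without replicate 2, MNA lowered Kdr (to 0.428 CPM, adjusted p = 3.37e-06) and Cdh5 (2.20 to 0.0386 CPM, adjusted p = 2.43e-06), and Pecam1 and Esam were not called. The part of adipocytes and endothelial cells in the results was not tested.

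The remaining marker lists had low sums. Stromal markers (2 of 8 tested) reached at most 4.15 CPM, B and T cell markers (4 of 7 tested) 7.33 CPM and dendritic cell markers (3 of 7 tested) 26.7 CPM in any library. Markers of eosinophils, basophils and mast cells (1 of 6 tested) summed to 3.92 to 7.11 CPM in DMSO and 30.5 to 58.2 in olaparib, nearly all of it Siglecf (means of 4.76 and 46.4 CPM). Neutrophil markers (3 of 8 tested) ranged from 4.69 to 65.4 CPM over MNA replicates 1, 3 and 4, against at most 10.0 in the other libraries, and erythroid markers (0 of 5 tested) from 0.193 to 54.5 CPM over those 3, against at most 3.80 in the others.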

How the data were processed

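The authors isolated RNA with Trizol, prepared stranded mRNA libraries and counted reads per gene with STAR 2.5.2b against GRCm38.p5 with the Ensembl annotation, and they deposited whole-number counts per gene, 1 table for each of the 12 libraries. Which strand column was kept is not given in the sources used here. Library totals were 21146291 to 31446849 counts in DMSO, 24947905 to 28766984 in olaparib and 24076240 to 27501216 in MNA, and the 9 genes had at least 73 counts in every library.

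The test was edgeR's quasi-likelihood test, version 4.0.16 under R 4.3.3 (TMM, filterByExpr with a minimum count of 10 and a minimum total of 15, Benjamini-Hochberg over 12849 genes), with the 3 groups in 1 fit. The 2 comparisons with DMSO share their control libraries. On simulated counts for the olaparib comparison with 12849 genes, 95 of 100 genes changed by 1 on the log2 scale and 100 of 100 changed by 2 were recovered, with 6 unchanged genes called. DESeq2 recovered as many and called 29 unchanged genes. Every simulated gene had the same dispersion of 0.0333, and the changed genes were drawn from those above a minimum expected count. These rates therefore do not cover genes whose spread differs from that value. In the measured counts of all 12 libraries, Plin2 at -1.03 and Fabp4 at -1.81 missed the threshold with olaparib. Whether the simulated rates hold for genes that MNA replicate 2 sets apart was not tested. The alternatives were DESeq2 1.42.0, other scalings and filters, each library left out, 2 groups alone and the replicate number as a block. Olaparib and DMSO libraries of the same number deviated together from their group means (Pearson's r over genes 0.227, 0.172, 0.225 and 0.408), so the numbers were read as pairs there, from the data and not from the labels. For MNA, not every pair passed 0.1 (r 0.242, 0.114, -0.009 and 0.277 against DMSO, and 0.070, 0.137, 0.131 and 0.392 with olaparib). The block fits nevertheless held the MNA libraries under the same replicate numbers. The olaparib results with the block therefore also rest on pairing MNA libraries by number. No block fit of olaparib and DMSO alone was run. The MNA deviations were taken from a group mean that held replicate 2, and the check was not repeated without that library. These values therefore cannot decide whether the MNA libraries were paired. For 34490 of the 35275 IDs, GENCODE's gene models of GRCm38 gave a symbol and a position.

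The 9 genes, the 7 pathway lists (117 genes) and the 10 marker lists were chosen with earlier results of these data known. Named from each list, in each comparison with DMSO, were the called genes with at least 100 counts on average, at most 3 at either end of the log2 fold changes, and Stat6 was named after its values were seen. Some genes that these rules select are not reported here. Levels per kilobase used the longest principal transcript.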

Additional observations from a re-analysis of the deposited data

Results flagged for a closer look

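Within each group of 4 libraries, the highest or lowest library was set against the others by Dixon's ratio, the gap to its nearest neighbour over the whole range, and its critical value for 4 samples. Over 54 genes and 162 groups, 23 groups held a library past it, and 17 of the 23 were MNA replicate 2. Chance gives about 1 in 20 for genes chosen without regard to these values, which the list genes were not: they were named because they were called, some of them only without that library. Of the 27 groups of the 9 genes, 2 were past it, both by that library. Fabp4 stood there at 52.2 CPM against 5.35 to 6.13 in the other MNA libraries. Plin2 stood there at 1474 CPM against 368 to 392.

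The other genes set apart in MNA replicate 2, which are all drawn from the pathway lists, were partly higher and partly lower than in the other MNA libraries. Among receptors and enzymes, Mrc1 was read at 519 CPM against 129 to 185, Slc27a1 at 140.7 against 19.8 to 23.0, Stab2 at 3.19 against 0.322 to 0.772, Hilpda at 47.2 against 7.98 to 9.53 and Arg1 at 359 against 10.4 to 13.0. Likewise higher were Klf4 at 111 CPM against 32.5 to 40.4, Nr1h3 at 32.0 against 8.49 to 11.1, Angptl6 at 7.13 against 1.56 to 2.25 and Fabp7 at 4.41 against 0 to 0.165. Lower there were Bscl2 at 65.7 CPM against 91.0 to 94.1, Clec7a at 296 against 899 to 983, Csf2rb at 1665 against 3027 to 3143, Lpl at 3071 against 5531 to 5840, Nrip1 at 24.0 against 26.9 to 27.4 and Ucp2 at 815 against 1603 to 1745.

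The remaining 6 fell in the other groups. Cebpb was read at 190.4 CPM in olaparib replicate 3 against 168 to 171, Lpin1 at 29.5 in olaparib replicate 3 against 22.0 to 23.2, and Ehhadh at 9.09 in olaparib replicate 4 against 6.92 to 7.24. In DMSO, Cyp27a1 stood at 6.80 CPM in replicate 3 against 4.55 to 4.83, Klf4 at 145.7 in replicate 1 against 132.2 to 134.2, and Slc27a3 at 3.84 in replicate 1 against 1.82 to 2.06.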

How the results depend on the processing

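Most values kept direction and call: over the results and alternatives, 471 were unchanged in both, 59 passed the threshold only under the alternative, 54 only in the fit as reported, and 7 turned direction. Of the 9 genes, olaparib changed 4 (27.0% of tested genes called), MNA 5 (28.6%), and the treatments differed in 3 (21.8%). With no filter on low counts the percentages were 13.7, 14.3 and 10.7. In the comparison of olaparib with DMSO, 9 genes were called with the replicate block and MNA replicate 2 left out (47.0%), with the 2 groups alone (45.4%) and with DESeq2 and MNA replicate 2 left out (44.7%), and the replicate block on all 12 libraries called 5. For MNA against DMSO these were 9 (55.0%), 0 (0%, where edgeR gave 4728 genes an unadjusted p under 0.05 and DESeq2 on all 12 libraries called 4449) and 9 (54.4%). For olaparib against MNA they were 7 (44.1%) with the block, 6 (43.3%) with DESeq2, and 14.4% of tested genes with the 2 groups alone. Leaving out 1 library gave 1 to 9 genes (16.6% to 43.7%) for olaparib against DMSO, 1 to 9 (3.55% to 54.1%) for MNA against DMSO and 3 to 6 (14.9% to 42.3%) for olaparib against MNA, the highest without MNA replicate 2 in each, and the fits without that library have fewer samples and a smaller common dispersion. DESeq2 with MNA replicate 2 left out was chosen after seeing the data, and with all 12 libraries DESeq2 gave no adjusted p for Fabp4. All reversals were uncalled differences between olaparib and MNA: Fabp4 ranged from -0.058 to 1.83 over the fits without 1 library and was below 0 without MNA replicate 1, 3 or 4 (-0.040, -0.051 and -0.058), Fabp5 ranged from -0.056 to 0.28 and Angptl4 from -0.055 to 0.57. Fabp5 was below 0 without olaparib replicate 3 or MNA replicate 1 (-0.056 and -0.042), and Angptl4 without olaparib replicate 3 or MNA replicate 3 (-0.055 and -0.030). The cause was not tested. Since not every same-numbered pair with MNA correlated above 0.1, the block is given for MNA only here: it brought Cd36 past the threshold against DMSO (adjusted p = 0.0389) as it did Arg1 (adjusted p = 0.0378), and Pparg between the treatments (adjusted p = 0.0393). With MNA replicate 2 left out as well, Pparg (adjusted p = 0.00751) and Fabp5 (0.28 ± 0.08, adjusted p = 0.0114) differed between the treatments past the threshold and Angptl4 did not (adjusted p = 0.0723).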
